A study of Mus musculus with 8 samples.

Results

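RNA sequencing of mouse kidney tubuloids was examined for 10 genes that mark injured or regenerating tubule epithelium: Spp1, Havcr1, Lcn2, Clu, Vcam1, Sox9, Cd24a, Vim, Prom1 and Sox4. Rows were matched to the genes by symbol, and all 10 were found among the 24063 gene symbols in the data. Tubuloids are tubule-like and spheroid structures grown between layers of Matrigel, a basement membrane gel, from fragments of postnatal mouse kidney, which the sample labels place at postnatal day 7 to 10, whereas the study's methods name a younger range. All 8 libraries, in both groups, came from cells of the genotype Pkd2fl/fl Pax8rtTA TetOCre mTmG: both copies of the polycystic kidney disease gene Pkd2 can be cut by Cre recombinase, the Pax8 promoter drives a doxycycline-dependent activator, that activator switches on Cre, and a membrane reporter changes colour after cutting. One group received doxycycline (DOX, n = 4 libraries), which turns Cre on, and the other the solvent dimethyl sulfoxide (DMSO, n = 4 libraries). Both were given for 3 days from day 3 of culture, and RNA was taken on day 7. In the study's culture protocol the medium holds hepatocyte, epidermal and basic fibroblast growth factors, with glial-derived neurotrophic factor added at first. According to the study the Pax8 promoter restricts Cre to epithelial cells, so other cells in the culture keep Pkd2 after DOX. The study also reported cells in differentiated structures that kept the reporter's first colour after DOX and were presumably wild type. Because the RNA came from whole cultures, fewer cells of a type and less RNA per cell cannot be told apart. The comparison of DOX with DMSO asked whether expression of these genes differed early after Cre induction. The labels do not state whether libraries came from separate animals, so tests measure the spread between these libraries, which may be in part technical.

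A damaged tubule cell loses its transport programme, spreads over the bared basement membrane and re-enters a less mature state in which it makes adhesion molecules, secreted matrix and iron-binding proteins, cytoskeletal filaments of mesenchymal cells and SOX transcription factors. Several of these proteins, above all KIM-1 (the product of Havcr1) and NGAL (the product of Lcn2), are measured in urine as signs of tubule damage. Kidney cells placed in culture are known to pass through a similar state, and Spp1, Cd24a, Sox4 and Sox9 are also expressed in developing kidney epithelium.

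Total counts per library ranged from 63922677 to 102716313. Reads were found for 13243 genes in DMSO 20 and 13599 in DOX 19, against 17054 to 17903 in the other 6 libraries, so results are also given without this pair where it matters. Normalised counts of Pkd2 itself, 4813 to 7538 with DMSO and 4136 to 5952 with DOX, overlapped (log2 fold change -0.31, SE 0.215, DESeq2 adjusted p = 0.999). By western blot, the study found less polycystin-2, the protein of Pkd2, after DOX. RNA counts over the whole gene do not measure that loss. The summed level of 9 epithelial markers was 710.1 to 2977 TPM (a transcript level scaled for length and library total) with DMSO and 926.4 to 1941 TPM with DOX, and each had a mean above 1 TPM. In contrast, 8 of 10 genes of the mature proximal tubule had a mean below 1 TPM, and Miox was listed at 0 in every library.

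The way isoforms were counted sets the scale of 3 of the 10 genes. Reads were counted per RefSeq transcript, and a read lying in several isoforms was counted for each of them. Spp1 had 5 transcripts, and within each library the least counted of them held 99.67% to 99.85% of the reads of the most counted, so the sum over transcripts was 4.996 to 4.998 times the most counted one. For Prom1, with 8 transcripts, the sum was 6.976 to 8 times the most counted transcript, and for Havcr1, with 3 transcripts, 2.955 to 3 times. The other 7 genes had 1 transcript each. Levels below are therefore given as TPM of the most counted transcript, which is scaled for transcript length and can be compared between genes, and the range of the sum is given with the values of these 3 genes. Tests between groups used counts summed over transcripts and divided by DESeq2 size factors (normalised counts), which are not scaled for length.

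**Figure D1:**
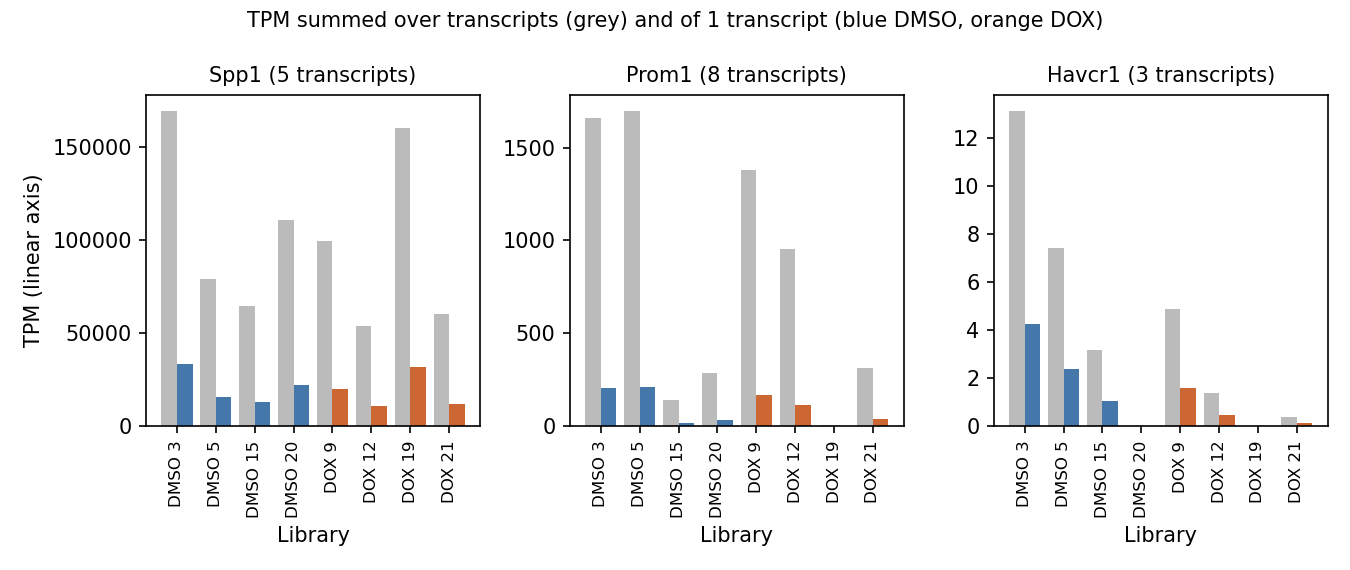
TPM (linear axis) of Spp1, Prom1 and Havcr1 in each of the 8 libraries, as the sum over transcripts (grey bars) and for the transcript with the highest mean count (blue for DMSO, orange for DOX). The mean over 8 libraries was 99665 summed against 19747 for 1 transcript of Spp1, 804.1 against 97.52 for Prom1 and 3.785 against 1.219 for Havcr1.

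On this scale the 10 genes spanned a wide range of levels. Spp1 came first with a mean of 19747 TPM over 8 libraries, followed by Clu (2376 TPM), Lcn2 (1178 TPM), Vim (410.1 TPM), Cd24a (398.9 TPM), Prom1 (97.52 TPM), Sox4 (94.46 TPM), Sox9 (30.11 TPM), Vcam1 (18.23 TPM) and Havcr1 (1.219 TPM). Not every step in this order held in every library. Spp1 lay above Clu, Clu above Lcn2, Cd24a above Prom1, Sox4 above Sox9 and Vcam1 above Havcr1 in 8 of 8 libraries. Lcn2 lay above Vim in 5 of 8 libraries, Vim above Cd24a in 6, Prom1 above Sox4 in 4 and Sox9 above Vcam1 in 6, and in these 4 pairs the mean log2 difference was smaller than its SD between libraries. Vim exceeded Cd24a by 0.18 on the log2(TPM + 1) scale with an SD of 1.99. For Prom1 against Sox4 the mean log2 difference was -0.99 (SD 2.42), opposite in sign to the difference of their mean TPM. When TPM was summed over transcripts, Prom1 moved from position 6 to position 4.

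**Figure D2:**
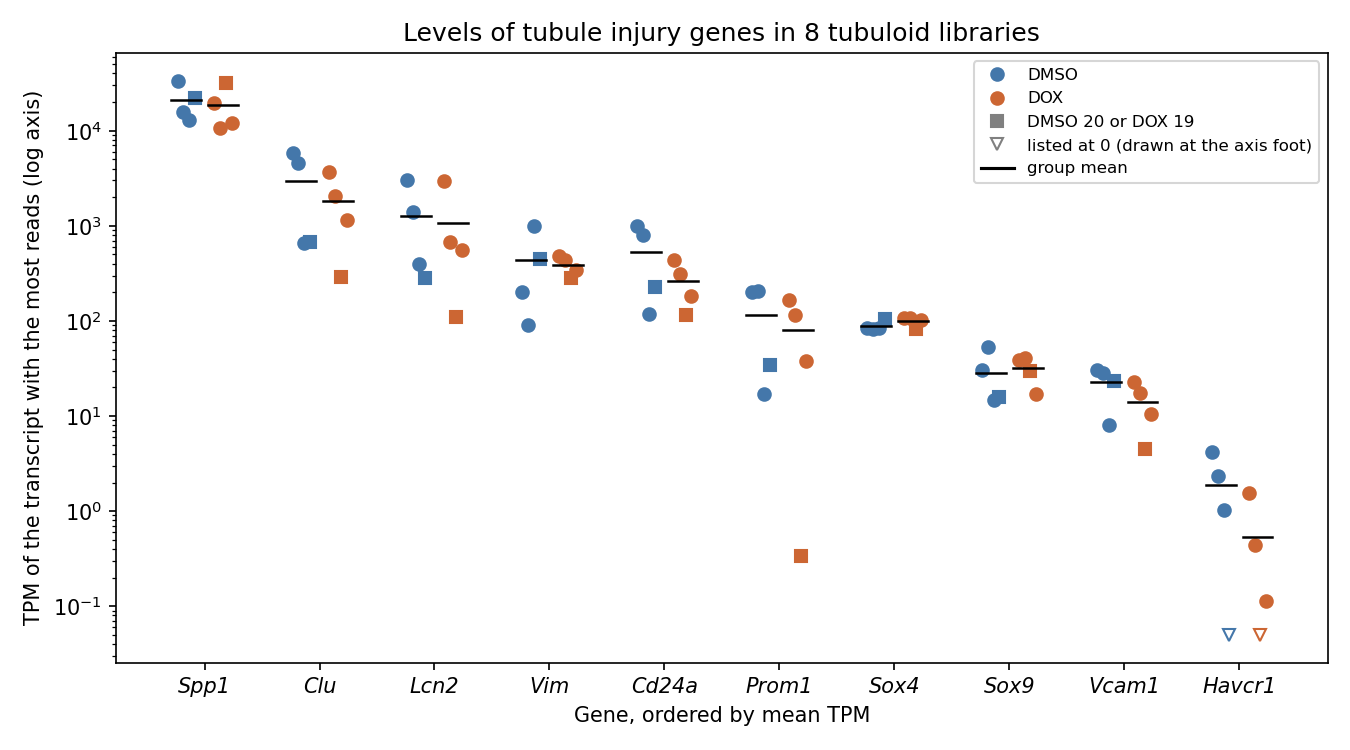
TPM of the most counted transcript (log axis) of each gene, ordered by mean level. Each symbol is 1 library (blue DMSO, orange DOX), squares are DMSO 20 and DOX 19, open triangles at the foot of the axis are libraries listed at 0, and bars are group means. DMSO and DOX symbols overlap for all 10 genes.

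Spp1 encodes osteopontin, a secreted phosphoprotein that binds integrins and CD44. Its gene lies on chr5:104435111-104441053 (GRCm38.p6). The TPM of Spp1 was 33581, 15609, 12833 and 21930 in DMSO 3, 5, 15 and 20. In DOX 9, 12, 19 and 21 it was 19676, 10602, 31769 and 11975. Summed over transcripts, the range over 8 libraries was 53508 to 169492 TPM. The highest library of each group, DMSO 3 and DOX 19, stood close together, and the other values of both groups were interspersed. One transcript of Spp1 took 1.18% to 4.43% of all counts when a single transcript per gene was counted, and by counts Spp1 ranked first in each library. By TPM it ranked first in 6 libraries and second in DMSO 15 and DOX 21. Group means were 20989 ± 9218 TPM for DMSO and 18506 ± 9702 TPM for DOX (SD, n = 4 each). On normalised counts the log2 fold change was -0.25 (SE 0.515), with a 95% interval from 0.418-fold to 1.69-fold, and it did not pass the test (DESeq2 adjusted p = 0.999). Without DMSO 20 and DOX 19 it was -0.69 (SE 0.514, DESeq2 adjusted p = 0.894), and without DMSO 3 it was 0.16, so 1 control library set its sign.

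Which Spp1 isoforms were present could be read only in part from these counts. The transcripts differ by a small exon of 3 bases at chr5:104436901-104436903 that adds 1 codon at coding positions 91 to 93. The coding sequences around it are shown because they differ by nothing else, and deposited transcripts that differ in length by these 3 bases had identical counts in every library. They come from the GENCODE vM21 transcripts (GRCm38, plus strand), with the small exon in capitals.
With the small exon: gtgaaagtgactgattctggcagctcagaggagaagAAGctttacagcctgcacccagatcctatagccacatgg
Without the small exon: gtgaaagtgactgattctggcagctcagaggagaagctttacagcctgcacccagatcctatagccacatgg
Transcripts that differ in length by 52 bases had slightly different counts. A read that also lay in shared sequence was counted for both, so this difference does not measure use of the extra bases. Reads counted only for the longer transcript numbered 147, 189, 99 and 445 in DMSO 3, 5, 15 and 20. In DOX 9, 12, 19 and 21 they numbered 29, 87, 702 and 90. As a share of Spp1 reads these were 0.00587%, 0.0223%, 0.0111% and 0.0451% in the DMSO libraries and 0.00203%, 0.0114%, 0.0395% and 0.0128% in the DOX libraries. DMSO 20 and DOX 19, the libraries with the fewest detected genes, had the highest values of their groups.

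Lcn2 encodes lipocalin 2 (NGAL), a secreted protein that binds iron-carrying siderophores, and Clu encodes clusterin, a secreted chaperone. Lcn2 lies on chr2:32384637-32387739 and Clu on chr14:65968483-65981548. Lcn2 was at 3024, 1388, 395.2 and 283.6 TPM in DMSO 3, 5, 15 and 20, and at 2984, 681.4, 110.1 and 556.0 TPM in DOX 9, 12, 19 and 21. Clu was at 5867, 4558, 665.1 and 681.1 TPM in the same DMSO libraries and at 3710, 2073, 289.8 and 1165 TPM in the DOX libraries. Both were high in DMSO 3, DMSO 5 and DOX 9, lowest in DOX 19, and overlapped between groups. The highest library exceeded the lowest by 30.2-fold for Lcn2 and 22.2-fold for Clu in normalised counts, whereas the ratio of Clu to Lcn2 TPM stayed between 1.24 and 3.28. The DOX against DMSO log2 fold change was -0.34 (SE 0.989) for Lcn2 and -0.81 (SE 0.881) for Clu, and neither passed the test (DESeq2 adjusted p = 0.999 for each). Single libraries set both values: Lcn2 turned to 0.70 without DMSO 3 and 0.05 without DOX 19, and Clu moved to -0.07 without DMSO 3 and to -1.51 without DOX 9.

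**Figure D3:**
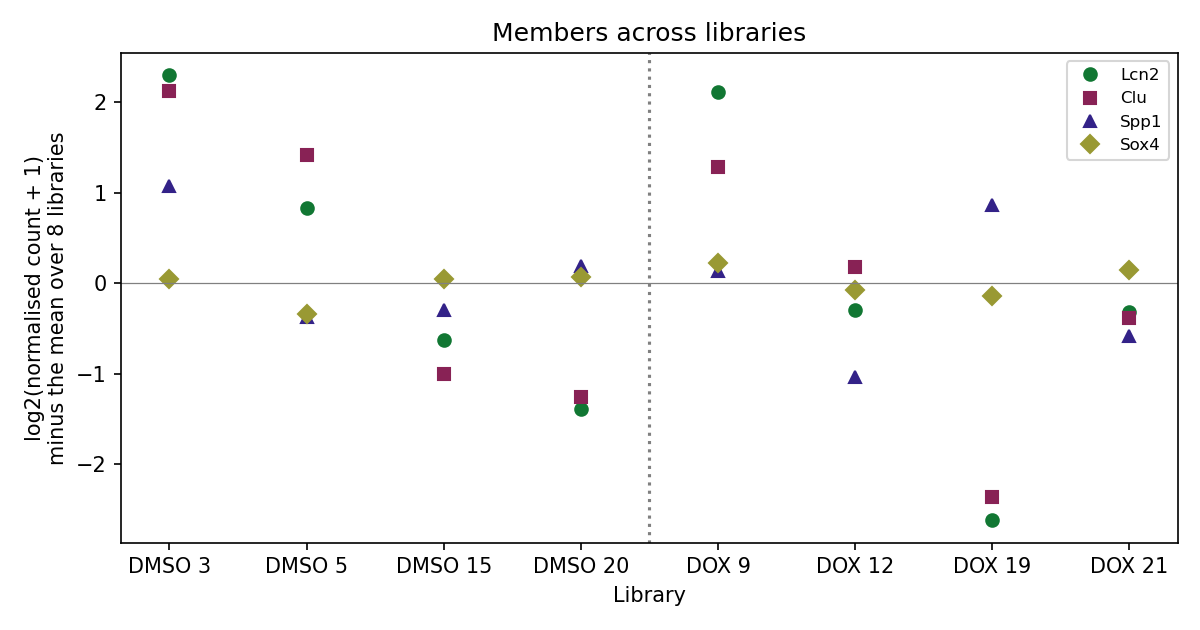
log2(normalised count + 1) minus the mean over 8 libraries (vertical axis) for Lcn2, Clu, Spp1 and Sox4 in each library, with a dotted line between DMSO and DOX. Lcn2 and Clu lie near each other in every library and lowest in DOX 19, Spp1 is high there, and Sox4 stays near 0.

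Among the surface proteins, Havcr1 (KIM-1, a phosphatidylserine receptor that appears on injured proximal tubule cells) was the least expressed of the 10 genes. It lies on chr11:46739822-46779578. Its TPM was 4.23, 2.36, 1.03 and 0 in DMSO 3, 5, 15 and 20, and 1.57, 0.446, 0 and 0.114 in DOX 9, 12, 19 and 21. Summed over transcripts it reached 13.1 TPM in DMSO 3 and 4.86 TPM in DOX 9. Those values came from 424, 172, 97 and 0 reads of 1 transcript in the DMSO libraries and 153, 43, 0 and 9 reads in the DOX libraries. A count of 0 allows up to 3 reads, so Havcr1 was not detected at this depth in DMSO 20 and DOX 19, and the limit covers counting error only. The libraries with reads overlapped between groups, with DOX 9 between DMSO 15 and DMSO 5. The log2 fold change was -1.97, the largest of the 10 genes, but its SE was 1.799 and it did not pass the test (DESeq2 adjusted p = 0.999). Without DMSO 20 and DOX 19 it was -1.94 (SE 0.889, DESeq2 adjusted p = 0.623), and with 1 library left out it ranged from -3.64 (without DOX 9) to -1.09 (without DMSO 3).

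Vcam1, an adhesion molecule that binds an integrin of leukocytes and is known from tubule cells that fail to repair, lies on chr3:116110020-116129688. It was at 30.7, 28.4, 7.997 and 23.3 TPM in DMSO 3, 5, 15 and 20, and at 23.0, 17.5, 4.54 and 10.5 TPM in DOX 9, 12, 19 and 21. In TPM, DMSO 3, DMSO 5 and DMSO 20 lay above the highest DOX library, and DMSO 15 lay below DOX 21. In normalised counts, DMSO 20 fell below DOX 9. On normalised counts the log2 fold change was -0.78 (SE 0.567), with a 95% interval from 0.269-fold to 1.25-fold (DESeq2 adjusted p = 0.999). It ranged from -1.20 without DOX 9 to -0.49 without DOX 19.

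Cd24a, a small glycosylphosphatidylinositol-anchored surface glycoprotein of immature and regenerating epithelium, lies on chr10:43579169-43584265. Its TPM was 989.0, 806.8, 119.5 and 228.4 in DMSO 3, 5, 15 and 20, and 438.8, 312.5, 114.5 and 181.5 in DOX 9, 12, 19 and 21. DMSO 3 and DMSO 5 exceeded each DOX library, but DMSO 15 was second lowest of all 8. The log2 fold change was -1.13 (SE 0.698), with a 95% interval from 0.177-fold to 1.18-fold. It had the lowest adjusted p of the 10 genes and still did not pass the test (DESeq2 adjusted p = 0.976). With 1 library left out, the log2 value ranged from -1.55 (without DOX 9) to -0.51 (without DMSO 3).

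Prom1 encodes prominin-1 (CD133), a membrane protein of protrusions and microvilli that marks scattered tubule cells, and lies on chr5:43993621-44102047. It varied most among the 9 members with reads in every library. Its TPM was 202.2, 207.5, 17.0 and 34.5 in DMSO 3, 5, 15 and 20, and 165.1, 115.3, 0.338 and 38.2 in DOX 9, 12, 19 and 21. Summed over transcripts it ran from 3.24 TPM in DOX 19 to 1698 TPM in DMSO 5. In DOX 19 each of its 8 transcripts held 48 reads, and the normalised count in the highest library exceeded that in DOX 19 by 575-fold. Elsewhere the 4 longer transcripts held more reads than the 4 shorter ones. In DMSO 3, for instance, the longer ones held 38079 to 38276 reads and the shorter ones 28726 to 28765. DMSO 3, DMSO 5, DOX 9 and DOX 12 were all above 100 TPM and the other libraries of both groups all below 40 TPM, so the spread lay within the groups. DESeq2 gave a log2 fold change of -0.62 (SE 1.185, adjusted p = 0.999), and without DMSO 20 and DOX 19 it was -0.48 (SE 0.804, DESeq2 adjusted p = 0.970). Leaving out DMSO 3 gave -0.05 and leaving out DOX 9 gave -1.37.

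Vim encodes vimentin, the intermediate filament of mesenchymal cells that injured tubule cells also make, and lies on chr2:13574311-13582826. Its TPM was 201.3, 90.3, 995.0 and 450.7 in DMSO 3, 5, 15 and 20, and 486.3, 434.8, 279.8 and 342.4 in DOX 9, 12, 19 and 21. Vim was the only member highest in DMSO 15, and it was lowest in DMSO 5. The DOX libraries all fell inside the range of the DMSO libraries. DESeq2 gave a log2 fold change of -0.33 (SE 0.692, adjusted p = 0.999), which turned to 0.61 without DMSO 15.

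Sox9 and Sox4 encode transcription factors of the SOX family, the first active in regenerating tubule cells and the second in many immature epithelia. Sox9 lies on chr11:112782210-112787757 and Sox4 on chr13:28948919-28953699. Sox9 was at 30.3, 53.0, 14.8 and 15.95 TPM in DMSO 3, 5, 15 and 20, and at 39.0, 41.2, 29.7 and 16.9 TPM in DOX 9, 12, 19 and 21. DESeq2 gave a log2 fold change of 0.09 (SE 0.464, adjusted p = 0.999), with a 95% interval from 0.568-fold to 2.01-fold, and -0.09 without DMSO 20 and DOX 19. Sox4 was at 85.1, 82.6, 84.5 and 104.2 TPM in the DMSO libraries and at 108.0, 106.7, 82.3 and 102.4 TPM in the DOX libraries. It was the steadiest of the 10 genes. Its SD over 8 libraries on the log2 scale was 0.176, which 2.17% of 13248 genes with a mean normalised count of at least 100 fell below, against a median SD of 0.534 for those genes. For comparison, the SD of Prom1 was 2.99 and that of Havcr1 4.0. On the log2 scale the DOX against DMSO fold change of Sox4 was 0.08 (SE 0.173, DESeq2 adjusted p = 0.999), and the 95% interval, from 0.835-fold to 1.34-fold, was the narrowest of the 10.

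Across the 10 genes, 8 log2 fold changes were negative and 2 positive, and their median was -0.48, beside a median of -0.075 over all genes tested. The epithelial markers had 8 negative values and 1 positive value with a median of -0.53, and the 7 collecting duct markers 5 negative and 2 positive values with a median of -1.01. Of these 7, 2 had a mean below 1 TPM. With a threshold of 0.05 on the adjusted p and 1.5-fold on the change, DESeq2 called 0 of the 10 genes, and 0.161% of all genes tested. It called 0 of the epithelial and collecting duct markers, and 0 of them had an unadjusted p under 0.05, beside 4.67% of all genes. At an unadjusted p under 0.05 the count was also 0 of 10 with DESeq2 (4.67% of all genes), with the quasi-likelihood test of edgeR (3.06%) and with limma-voom (3.07%), and after adjustment edgeR and limma-voom called 0 genes in the whole data. The count at an unadjusted p under 0.05 was not 0 in each smaller set of libraries. It was 1 without DMSO 20 and DOX 19 (Havcr1, beside 6.11% of all genes), 1 without DMSO 15 (Cd24a, beside 6.59%), 1 without DMSO 20 (Cd24a, beside 5.82%) and 2 without DOX 9 (Cd24a and Vcam1, beside 4.06%), and 0 without each of the other 5 libraries. The DMSO and DOX libraries overlapped for all 10 genes, whereas 2.45% of all genes showed no overlap. Exact two-sided permutation tests on log2 normalised counts gave p from 0.286 for Vcam1 to 0.771 for Sox9, where the smallest p that 4 against 4 libraries allow is 0.02857. These intervals do not show equal expression: for 9 of the 10 genes, all but Sox4, they include a 1.5-fold difference or more in at least 1 direction. DMSO 3 was the highest library for 7 of the 10 genes in normalised counts, and DOX 19 was the only lowest library for 5.

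**Figure D4:**
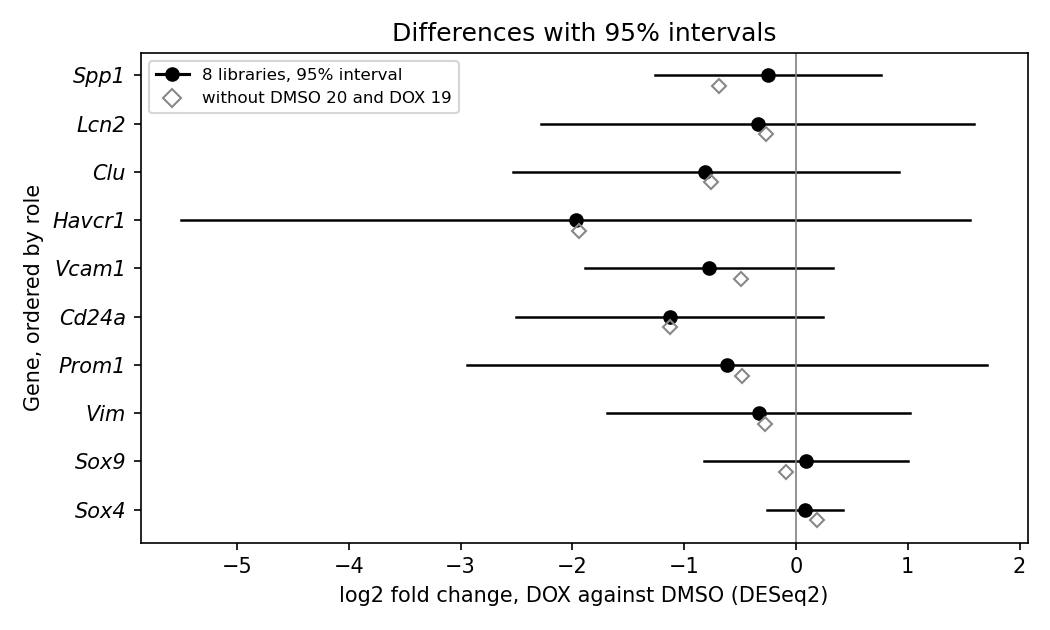
log2 fold change of DOX against DMSO (horizontal axis, DESeq2) for the 10 genes ordered by role. Circles with lines are all 8 libraries with 95% intervals, and open diamonds are values without DMSO 20 and DOX 19. All 10 intervals include 0, from the widest for Havcr1 to the narrowest for Sox4.

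Summed levels of cell type markers differed between the libraries along with several of these genes. The summed TPM of 10 stromal markers (collagens, Pdgfra, Pdgfrb, Dcn, Lum, Postn, Acta2 and Tagln, genes of fibroblasts and smooth muscle) was lowest in DMSO 5 (291.8), highest in DMSO 15 (5369) and between 747.6 and 1104 with DOX. Of these 10 markers, 9 had a negative log2 fold change and 1 a positive one, the median was -1.07, and DESeq2 called 0. At an unadjusted p under 0.05 there were 2, beside 4.67% of all genes, and both were lower with DOX: Col1a1 (-1.85, SE 0.871, adjusted p = 0.814) and Tagln (-1.86, SE 0.946, adjusted p = 0.879), named after their values were seen. DMSO 15 held the highest level of both, 732 TPM for Col1a1 and 1708 TPM for Tagln. Epithelial markers were lowest, at 710.1 TPM, in DMSO 15. Vim followed the stromal sum: its TPM ranged 11-fold over the 8 libraries, but its ratio to the stromal sum only 2.4-fold, from 0.183 in DMSO 3 to 0.441 in DOX 9. Cd24a ranged 8.64-fold in TPM and 3.94-fold as a ratio to the epithelial sum, which itself ranged 4.19-fold. Vcam1 ranged 6.75-fold in TPM and 4.68-fold as a ratio to the epithelial sum. For Clu the same ranges were 20.2-fold and 9.23-fold, for Lcn2 27.5-fold and 19.0-fold and for Prom1 614-fold and 390.0-fold. Spp1 ranged 3.17-fold in TPM and 3.73-fold as a ratio, Sox9 3.59-fold and 3.4-fold, and Sox4 1.31-fold and 4.16-fold. The 7 macrophage markers found in the data summed to 6.40 to 25.8 TPM with DMSO and 0.00680 to 5.72 TPM with DOX. These sums did not overlap, but single markers did: Cd68 was at 3.88 TPM in DOX 9 and 2.77 TPM in DMSO 5. Of the 3 that could be tested, DESeq2 called 0 (0.161% of all genes) and 0 had an unadjusted p under 0.05 (4.67%). None of these 3 separated the groups in normalised counts, beside 2.45% of all genes. The highest sum, in DMSO 15, rested on Lyz2 (13.3 TPM) and on C1qa (2.25 TPM), C1qb (4.81 TPM) and C1qc (3.37 TPM), the C1q genes being listed at 0 in the other 7 libraries, whereas the sums of the other DMSO libraries rested on Ptprc and Cd68. The 6 endothelial markers summed to 23.1 to 44.0 TPM with DMSO and 27.3 to 91.5 TPM with DOX. That sum rested on Emcn (mean 34.4 TPM) and Flt1 (14.0 TPM), and the other 4, among them Pecam1 and Cdh5, had means below 1 TPM. The part of cell make-up in the values of Vim, Cd24a and the other genes was not tested.

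**Figure D5:**
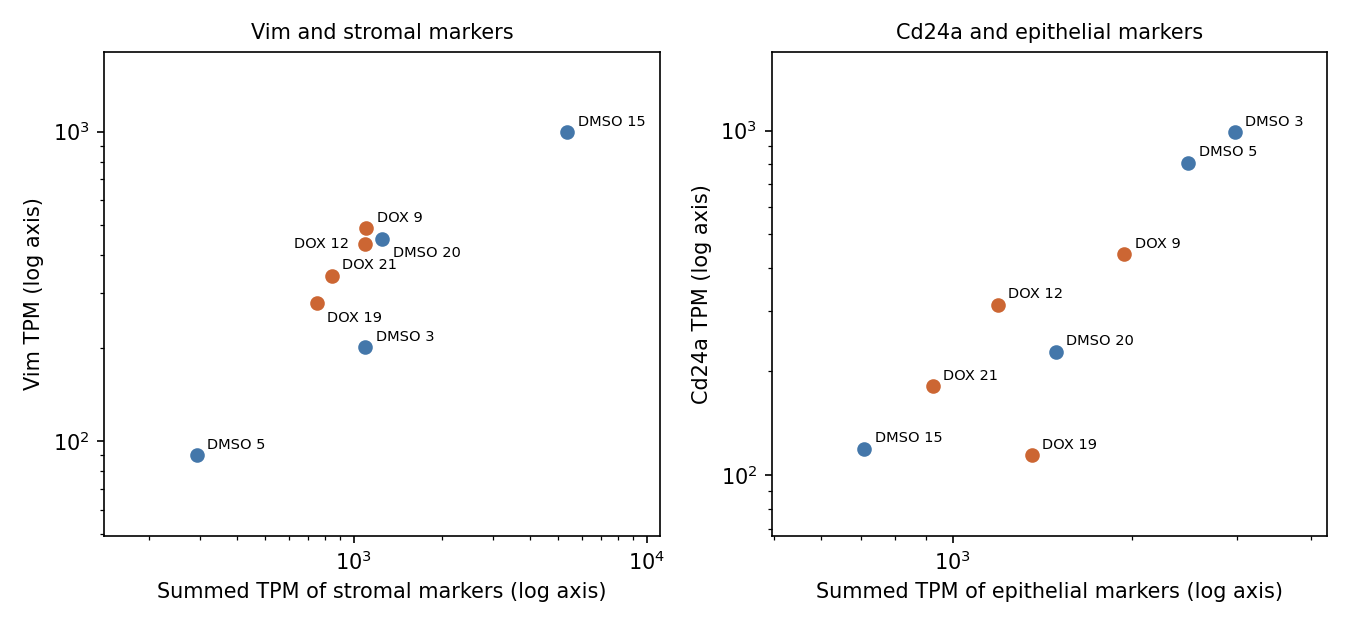
TPM of Vim against the summed TPM of 10 stromal markers, and TPM of Cd24a against the summed TPM of 9 epithelial markers (all axes log). Each labelled point is 1 library (blue DMSO, orange DOX). Vim and the stromal sum are both lowest in DMSO 5 and highest in DMSO 15, and Cd24a and the epithelial sum are both highest in DMSO 3, with DOX 19 below the other libraries of like epithelial sum.

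Other genes linked to tubule injury and repair were also looked at, from a list of 40 genes, of which 39 could be tested. DESeq2 called 0 of them, 4 had an unadjusted p under 0.05, all lower with DOX (4.67% of all genes in either direction), and the median log2 fold change was -0.45, with 28 negative and 11 positive values. The most abundant were S100a6 (mean 2113 TPM), S100a11 (1402 TPM), both calcium-binding proteins, and Anxa2 (904.0 TPM), a membrane-binding annexin. S100a11 was one of the 4 genes, with 35975 ± 10811 normalised counts for DMSO and 23484 ± 3665 for DOX (SD, n = 4 each; log2 fold change -0.62, SE 0.28, DESeq2 adjusted p = 0.786). Named after their values were seen, the other 3 were the chemokine Cxcl1 (-1.23), complement C3 (-1.13) and the immediate early gene Fos (-1.0 on the log2 scale), with DESeq2 adjusted p of 0.825, 0.871 and 0.774. Their groups overlapped.

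Most receptors for the secreted members were detected. Of 11 receptor genes, 2 had a mean below 1 TPM: Lrp2 (0.0174 TPM), which encodes megalin, and Itga4 (0.201 TPM), the integrin subunit that binds Vcam1, both at 0 in DMSO 20 and DOX 19. DESeq2 called 0 of the 11, beside 0.161% of all genes, and 1 had an unadjusted p under 0.05, beside 4.67%: Lrp8, a receptor of clusterin (log2 fold change -0.72, SE 0.337, DESeq2 adjusted p = 0.808), named after its value was seen. The most abundant were the integrin subunits Itgb1 (mean 568.0 TPM), Itgb5 (291.2 TPM) and Itgav (59.9 TPM), which pair into receptors of osteopontin. Itgb5 had 65798 ± 30678 normalised counts for DMSO and 91920 ± 25394 for DOX (SD, n = 4 each; log2 fold change 0.48, SE 0.419, DESeq2 adjusted p = 0.999). The median over the 11 was -0.17.

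Among 16 family relatives of the 10 genes, 14 were tested, none was called, and 7 had a mean below 1 TPM. Desmin (Des, mean 67.2 TPM) and nestin (Nes, 52.3 TPM), filament proteins like vimentin, and Dmp1 (36.4 TPM), a bone matrix phosphoprotein of the osteopontin family, were the most abundant, and Mepe of that same family was listed at 0 throughout. Des shared the high value in DMSO 15 (192.0 TPM) and the low value in DMSO 5 (18.2 TPM) with Vim. Of the mature proximal tubule genes, 8 were tested and none was called. Slc5a2 (mean 10.2 TPM), the glucose transporter of the early proximal tubule, Ggt1 (6.75 TPM), a brush border enzyme, and the water channel Aqp1 (0.430 TPM) were the most abundant of that list. Slc5a2 was highest in DMSO 20 (23.7 TPM), where Ggt1, Aqp1 and the other genes of the list were at 0.

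Genes whose pattern over the 8 libraries was most like that of each member were found by the root-mean-square (RMS) difference of mean-centred log2(normalised count + 1) among 13247 other genes. The likeness is a description over 8 libraries, in which depth and marker levels also differed. For Spp1, whose own RMS deviation from its mean was 0.67, the nearest genes were Sfn (0.300), which encodes an epithelial 14-3-3 protein, 5730559C18Rik (0.316), Il1rn (0.358), the interleukin-1 receptor antagonist, and the heat shock genes Hspa1a (0.370) and Hspa1b (0.373), near-identical copies whose reads may not be told apart. Sfn reached its highest levels in DMSO 3 (72.2 TPM) and DOX 19 (66.6 TPM), the same libraries as Spp1. No member was near Spp1: the nearest, Sox4, differed by 0.675, more than the deviation of Spp1 from a flat line.

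Lcn2 was the only member whose nearest gene was another member, Clu (0.433, against an own RMS of 1.57). The nearest gene was Slc35g1 for Clu (0.283), Rab27a, a small GTPase of vesicle release, for Havcr1 (0.671), Mboat1 for Vcam1 (0.240), Ldhb, a lactate dehydrogenase subunit, for Cd24a (0.289) and Mia2 for Prom1 (0.412). For Vim it was Dpysl3 (0.217), for Sox9 Styk1 (0.195) and for Sox4 the chaperone partner Cdc37 (0.0488). Rab27a, like Havcr1, was listed at 0 in both DMSO 20 and DOX 19.

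Sequence before the start site was given for 6 of the 10 genes, in 10 RefSeq entries (GRCm38.p6), and not for Clu, Vcam1, Sox9 and Cd24a. The 250 bases before each start were searched on both strands for TATAAA (the TATA box), TGANTCA (AP-1), GGAATG (TEAD), TTCNNNGAA (STAT), CACGTG (E-box) and the kappa-B consensus. Of 32841 RefSeq promoter windows of the same length, 12.4% held TATAAA, 6.75% TGANTCA, 12.6% GGAATG, 7.02% TTCNNNGAA, 6.02% CACGTG and 7.25% the kappa-B consensus. Spp1 and Vim are shown because the first is the most abundant member and the second the only one highest in DMSO 15, and because TATAAA lies at different distances in them. Motif matches are in capitals.
Spp1, chr5:104434861-104435110, plus strand: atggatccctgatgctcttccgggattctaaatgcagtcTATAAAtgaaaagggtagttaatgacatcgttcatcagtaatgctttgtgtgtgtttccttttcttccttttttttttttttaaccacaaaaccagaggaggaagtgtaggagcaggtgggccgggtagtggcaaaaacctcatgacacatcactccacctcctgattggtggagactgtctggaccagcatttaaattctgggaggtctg
Vim, chr2:13574061-13574310, plus strand: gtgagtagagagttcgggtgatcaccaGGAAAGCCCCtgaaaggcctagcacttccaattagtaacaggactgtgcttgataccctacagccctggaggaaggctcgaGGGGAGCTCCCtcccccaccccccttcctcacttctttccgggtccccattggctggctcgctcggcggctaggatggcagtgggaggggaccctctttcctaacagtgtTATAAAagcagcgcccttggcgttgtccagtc
TATAAA began 32 bases before the start of Vim and 211 bases before the first start of Spp1. The capitals of Vim also mark matches to the kappa-B consensus, which begin 223, 142 and 141 bases before the start, and those at 142 and 141 overlap. Prom1 had 1 TGANTCA before each of its start sites, at 88 and 189 bases, a motif that reads alike on both strands. Sox4 had 1 GGAATG at 168 bases. Lcn2, Havcr1 and the second start of Spp1 had no match to these letters in this window.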

How the data were processed

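RNA was measured in 8 tubuloid libraries, grouped by the treatment in their titles (4 DMSO, 4 DOX). The authors used the SMART-Seq v4 kit with poly-A selection, aligned reads to mm10 with STAR and counted them per RefSeq transcript on the BasePair platform. The submitters' processing notes also name featureCounts and DESeq2, and versions were not given in the sources used here. Each deposited count gives the reads of 1 transcript, unnormalised. FPKM, in which the authors scaled counts by length and library total, was not used for results. TPM values, which the authors brought to the same sum in each library, served to describe levels.

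Counts were summed by gene symbol. In the 4914 symbols with several transcripts, reads shared by isoforms entered once per isoform, so summed totals of 63922677 to 102716313 per library fell to 39252852 to 64561676 with 1 transcript per gene. The treatment of reads from paralogs and overlapping genes is not stated.

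DOX was compared with DMSO by the DESeq2 1.42.0 Wald test in R 4.3.3, the study's tool, on all genes with unshrunken fold changes, independent filtering at alpha 0.1 and p-values adjusted by Benjamini-Hochberg. Calls needed an adjusted p no higher than 0.05 and a 1.5-fold change. A 95% interval is the log2 fold change ± 1.96 SE. The alternatives were edgeR 4.0.16, limma-voom (limma 3.58.1), TMM size factors, at least 10 counts in every library, 1 transcript per gene, and leaving out libraries. The tests were tested on simulated data. Those data were drawn from the mean and fitted spread of each gene and did not model libraries with few detected genes. Neighbours in level were compared on log2(TPM + 1). The members and gene lists were chosen with earlier results of these data known. Genes named were the members, the genes most like them (5 for Spp1, 1 for each other), the called genes and 3 most abundant genes of each list, and Pkd2. Genes of a list with an unadjusted p under 0.05 and no overlap were to be named too, but there were none; those named on p alone, and a few others, were chosen after their values were seen. The most abundant genes of the cell type lists are covered by the summed level of their list. Protein sequences were not used here.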

Additional observations from a re-analysis of the deposited data

Results flagged for a closer look

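Among 20 groups of 4 libraries (10 genes in each treatment group), 1 held a library far from the rest, and about 1 in 20 is flagged by chance. Sox4 in DMSO 5 was at 13.14 on the log2 scale of normalised counts, whereas the other 3 DMSO libraries lay between 13.53 and 13.55. The gap made up 0.941 of the whole range of the group. Without DMSO 5 the log2 fold change of Sox4 was -0.01 in place of 0.08.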

How the results depend on the processing

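In no alternative was any of the 10 genes called, and the lowest adjusted p among them was 0.433. The number of genes called overall was 25 with DESeq2, 0 with edgeR, 0 with limma-voom, 16 with at least 10 counts in every library (a filter that Havcr1 did not pass, so it has no value there), 51 without DMSO 20 and DOX 19, and 14 (without DMSO 3) to 74 (without DMSO 15) when 1 library was left out, with 45 without DMSO 20 and 44 without DOX 21. The cause was not tested. Of 59 log2 fold changes of members under the other alternatives, 57 kept their direction. The exceptions were Sox9 without DMSO 20 and DOX 19 (-0.09) and Vim with limma-voom (0.25). Of 80 with 1 library left out, 72 kept it. The ranges were -0.68 to 0.16 for Spp1, -1.71 to 0.70 for Lcn2, -0.12 to 0.46 for Sox9, -0.68 to 0.61 for Vim and -0.01 to 0.14 for Sox4, and, with no change of sign, -3.64 to -1.09 for Havcr1, -1.51 to -0.07 for Clu, -1.20 to -0.49 for Vcam1, -1.55 to -0.51 for Cd24a and -1.37 to -0.05 for Prom1. With 1 transcript per gene in place of the sum, mean shares of all counts went from 7.43% to 2.42% for Spp1, 0.131% to 0.0302% for Prom1, 0.000379% to 0.000206% for Havcr1, 0.00315% to 0.00510% for Vcam1, 0.00634% to 0.0102% for Sox9 and 0.0142% to 0.0228% for Sox4, the mean of Spp1 19747 TPM, and the positions by level 4 for Vim, 5 for Cd24a and 6 for Prom1. TPM of 1 transcript per gene rescaled to a common sum over genes, a setting chosen after seeing the data, gave means of 31160 for Spp1, 28.5 for Vcam1, 46.9 for Sox9 and 147 for Sox4. No paired analysis was possible because the library numbers in the titles are not shared between groups. With 4 libraries a group, differences smaller than the intervals could not be detected.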
